A study of Mus musculus with 15 samples.

Results

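A set of 6 pituitary hormone genes of the mouse, namely Gh, Prl, Pomc, Cga, Lhb and Tshb, was followed through 15 libraries of trigeminal ganglion (TG), to see how much of their mRNA each dissected ganglion carried. They were picked by name, with earlier results of these data known, and they are 6 of the 55573 genes of the count table. Reads were found for 5 of the 6, and these 5 were also among the 16567 genes that had enough reads to be tested; Lhb had none. The TG holds the cell bodies of the sensory neurons that serve the cornea. The mice were 10-week-old CD1 males whose right central cornea had been wounded with a 2-mm trephine, and the TG of that side was taken on day 12. There were 5 mice that had received vehicle on the eye (libraries vehicle 1 to 5), 5 resolvin D6 standard (RvD6 6 to 10), and 5 the RvD6 isomer (RvD6si 11 to 15), a stereoisomer of RvD6 found in tears. Both lipids were applied 3 times per day, at doses not given in the sources used here for these ganglia. Every group shared the wound, strain and sex, and uninjured mice were not analysed here.

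The anterior pituitary makes its hormones in separate cell types. Somatotropes make growth hormone (Gh), lactotropes prolactin (Prl), corticotropes proopiomelanocortin (Pomc), which is cut into ACTH, gonadotropes luteinizing and follicle-stimulating hormone, and thyrotropes thyroid-stimulating hormone. The last 3 hormones share 1 alpha subunit (Cga) and differ in their beta subunits (Lhb, Fshb and Tshb). The intermediate lobe holds melanotropes, which make much Pomc and cut it into MSH. The gland sits in the floor of the skull between the trigeminal ganglia.

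The 15 libraries held 4125962 to 9903396 counted reads, with a median of 7756538, so that 3 reads of a gene, the floor used here, stood for 0.303 to 0.727 CPM (reads scaled to the total of the library). The libraries were made by Smart-seq2, in which a very small amount of RNA is copied from its poly(A) tail and amplified, and reads carry neither strand nor molecular identifiers; intervals and floors below cover counting error only. The tissue label was checked against marker genes: all 10 sensory neuron markers and all 6 markers of satellite glia and Schwann cells were found in every library, with summed levels of 3566 to 6691 CPM for the neurons. RvD6 9 and RvD6 10 had the lowest summed neuron markers, 3566 and 3986 CPM, against 5272 to 6691 CPM in the other 13. The labels number the samples but do not name the animals, so p-values measure the spread between these samples. In such bulk RNA, a different number of pituitary cells and a different amount of RNA per cell cannot be told apart.

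Gh, on the minus strand of chr11:106300271-106301865 (GRCm38, ENSMUSG00000020713.6), has 862 exonic bases that no other annotated gene overlaps. Prl (ENSMUSG00000021342.14, plus strand) lies at chr13:27057570-27065205, Pomc (ENSMUSG00000020660.6, plus strand) at chr12:3954951-3960642, and neither shares exonic bases with another gene. Cga (ENSMUSG00000028298.10, chr4:34893779-34907370, plus strand) shares 305 of its 954 exonic bases with Platr9 on the other strand, which had 0 reads in all libraries. Lhb (ENSMUSG00000100916.3, chr7:45420820-45421897, plus strand) shares 138 of 678 exonic bases with Ruvbl2 on the other strand. Reads within shared bases cannot be assigned by strand in these libraries, and how they were counted is not stated here. The levels of Cga and the limit for Lhb are uncertain to that extent. Tshb (ENSMUSG00000027857.10, chr3:102775465-102782718, minus strand) lies within the span of Tspan2, a tetraspanin gene of the other strand that was present at 14.5 to 77.2 CPM. No exonic base of Tshb is shared with Tspan2, but reads from unspliced Tspan2 RNA would be counted for Tshb in libraries without strand, and for this gene the source of the reads is uncertain.

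The 250 bases before the transcription start of Prl and of Pomc are shown because these genes parted most clearly in the libraries: Prl followed Gh, and Pomc did not in 2 of them. The sequences are those of RefSeq (GRCm38.p6), at chr13:27057320-27057569 for Prl and chr12:3954695-3954944 for Pomc, plus strand, and capitals mark matches, on either strand, to TATNCAT (bound by POU1F1, the factor of somatotropes, lactotropes and thyrotropes) or AAGGTCA (bound by NR5A1, the factor of gonadotropes).

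Prl: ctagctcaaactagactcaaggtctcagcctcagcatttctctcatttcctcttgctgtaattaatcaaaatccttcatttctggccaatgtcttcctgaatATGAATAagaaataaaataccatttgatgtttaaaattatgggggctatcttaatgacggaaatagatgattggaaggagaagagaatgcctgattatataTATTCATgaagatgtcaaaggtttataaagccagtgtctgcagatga

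Pomc: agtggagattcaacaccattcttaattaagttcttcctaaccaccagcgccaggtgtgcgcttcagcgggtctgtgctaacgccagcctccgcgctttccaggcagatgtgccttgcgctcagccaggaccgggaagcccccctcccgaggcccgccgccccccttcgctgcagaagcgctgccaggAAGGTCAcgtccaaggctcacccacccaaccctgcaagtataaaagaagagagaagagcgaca

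Prl held 2 matches to TATNCAT, which began 148 and 47 bases before the start, and none to AAGGTCA. Pomc held 1 match to AAGGTCA, 63 bases before the start, and none to TATNCAT. Among 32851 promoter windows of the same length, 7.92% held TATNCAT and 4.08% AAGGTCA; the matches do not overlap in the windows shown. Of the other members with a window, Cga and Tshb held neither motif and Lhb held 1 AAGGTCA. A window was found for 5 of the 6 members, and Gh was not among them. A match is a run of letters, not a measured site.

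Gh was counted in all 15 libraries and spanned 518-fold in CPM. In the vehicle group it was at 6.46, 19.4, 3348, 314 and 80.6 CPM in libraries 1 to 5. With RvD6 it was at 716, 640, 197, 75.75 and 796 CPM in libraries 6 to 10, and with RvD6si at 19.2, 599, 33.65, 559 and 51.1 CPM in libraries 11 to 15. Each group thus held libraries with little Gh and libraries with much, and the 3 groups overlapped. Library vehicle 3 stood highest: 31607 Gh reads made the hormone gene the 19th most counted gene of that ganglion, whereas in vehicle 1, with 64 reads, it ranked 11277th. In RvD6si, libraries 12 and 14 were at 599 and 559 CPM and the other 3 at 51.1 CPM or less. Expressed as reads divided by DESeq2 size factors, mean Gh was 5689 ± 11030 in vehicle, 3566 ± 2391 in RvD6 and 1776 ± 2108 in RvD6si (SD, n = 5 each). The medians stood in another order, 606 in vehicle, 4628 in RvD6 and 343 in RvD6si, since the vehicle mean rested on library 3.

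Prl had reads in 14 libraries. Vehicle libraries 1 to 5 were at 0, 2.47, 160, 12.4 and 3.50 CPM; the 0 in vehicle 1 allows a level of up to 0.303 CPM. RvD6 libraries 6 to 10 were at 52.3, 82.3, 17.05, 11.75 and 24.7 CPM, and RvD6si libraries 11 to 15 at 1.13, 50.8, 3.48, 71.4 and 6.06 CPM. The libraries high and low in Prl were largely those high and low in Gh, with vehicle 3 again at the top and RvD6si 12 and 14 above the other 3 of their group.

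Pomc was counted in all 15 libraries, and spanned more fold in CPM than Gh, although its lowest value was a single read. Vehicle libraries 1 to 5 were at 0.909, 2.96, 27.5, 6.06 and 3.28 CPM, and RvD6si libraries 11 to 15 at 0.161, 26.0, 1.55, 13.4 and 2.18 CPM. RvD6 libraries 6 to 10 were at 5.93, 23.7, 1.12, 233 and 1438 CPM. RvD6 9 and RvD6 10 lay above every other library, the next highest being vehicle 3, while RvD6 8 lay within the low range of the other groups. The 10405 Pomc reads of RvD6 10 outnumbered its 5757 Gh reads. The RvD6 group mean, 2479 ± 4525 normalized reads (SD, n = 5), therefore rested on RvD6 10 and RvD6 9; it was 61.1 ± 83.6 in vehicle and 60.8 ± 77.6 in RvD6si.

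The glycoprotein hormone subunits were sparse. Cga was at 1.31, 0.494, 22.7, 0.539 and 0 CPM in vehicle 1 to 5, at 11.0, 4.36, 0.562, 0.851 and 23.9 CPM in RvD6 6 to 10, and at 0, 5.48, 0.258, 3.50 and 0.242 CPM in RvD6si 11 to 15. It was highest in RvD6 10 and vehicle 3, and the groups overlapped. Tshb never rose above 15 reads or 1.93 CPM, had 0 reads in 4 libraries (vehicle 5, RvD6 7, RvD6si 12 and RvD6si 14), and was not high where the other members were: vehicle 3 held 11 reads and RvD6 10 held 1. Lhb had 0 reads in every library, which allows up to 0.303 to 0.727 CPM. Fshb, the beta subunit of follicle-stimulating hormone and not a member, had reads in 9 libraries, most of them in RvD6 10 (143 reads), RvD6si 12 (130) and vehicle 3 (85).

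**Figure D1:**
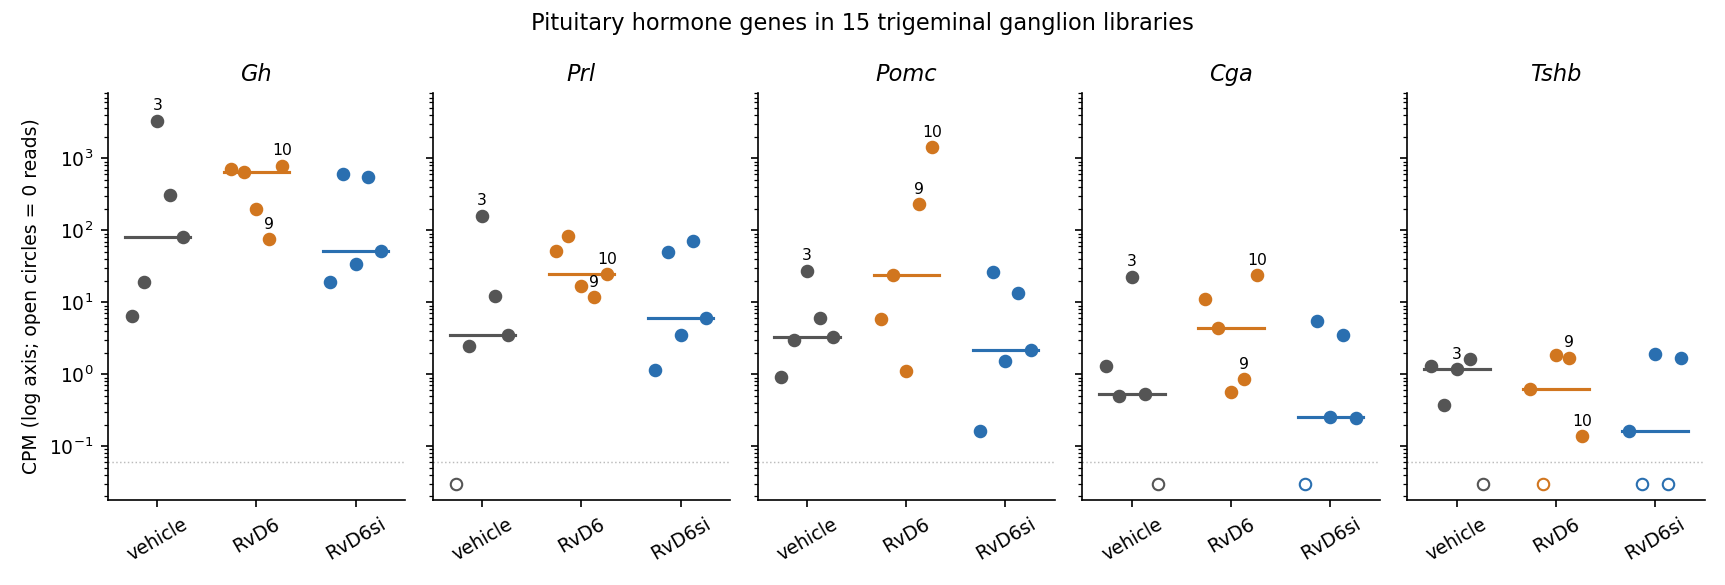
Level of 5 members in each library, as CPM on a log axis, by group; each circle is 1 library, bars are group medians, numbers name vehicle 3, RvD6 9 and RvD6 10, and open circles under the dotted line are libraries with 0 reads. Gh ran from 6.46 to 3348 CPM, Pomc was at 233 and 1438 CPM in RvD6 9 and RvD6 10, and the 3 groups overlapped for every gene.

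Summed over the members, the hormone genes made up 10.0 to 3560 CPM in vehicle (median 87.4), 218 to 2283 CPM in RvD6 (median 750) and 20.6 to 682 CPM in RvD6si (median 61.3). The median of RvD6 was thus higher than the other medians, but the highest library of all was a vehicle library. At most, in vehicle 3, the members took 0.356% of all counted reads. No test was made of this sum.

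Compared per length, as TPM (reads per kilobase of exon, scaled to the same total in every library), the members were ordered by mean level. Mean levels over the 15 libraries were 1359 ± 2227 TPM for Gh, 211 ± 654 for Pomc, 56.7 ± 73.8 for Prl, 12.4 ± 19.3 for Cga, 0.442 ± 0.418 for Tshb and 0 for Lhb (SD, n = 15). By the median, Prl (20.6 TPM) stood before Pomc (10.4 TPM), and the other places were unchanged. Gh exceeded Prl and Cga in all 15 libraries and Pomc in 13. Neighbours lower in the order were less separate: Pomc exceeded Prl in 5 of the 15 libraries, Prl exceeded Cga in 13, and Cga exceeded Tshb in 11. The SD was larger than the mean for all of the first 4, so the order is a matter of each library rather than of the means.

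Within a library, Gh and Prl kept a narrower ratio than their levels did. Prl made up 0 to 13.4% of the Gh and Prl reads, with a median of 7.81%. The lowest share above 0 was 3.015% in RvD6 10 (exact 95% binomial interval 2.595 to 3.483%) and the highest 13.4% in RvD6 9 (10.6 to 16.7%). In vehicle 1, 0 of 64 reads allows a share of up to 4.69% at the floor of 3 reads, or 5.60% by the exact 95% binomial interval. Per length, Gh exceeded Prl by 10.5- to 52.5-fold in the 14 libraries with Prl reads, where Gh itself ran from 19.2 to 3348 CPM.

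The ratio of Pomc to Gh split the libraries. Per length, Pomc was at 2.01 times the level of Gh in RvD6 9 and at 1.18 times in RvD6 10. In the other 13 libraries it was at 0.00373 to 0.100 times Gh, with a median of 0.0242. RvD6 9 had much Pomc with little Gh (1368 and 445 reads), and RvD6 10 had much of both. These 2 libraries also had the lowest sensory neuron markers, and RvD6 9 had the highest summed skeletal muscle markers, 2917 CPM for 6 genes, against 227 CPM in RvD6 10, 1783 CPM in RvD6 8 and 8.00 to 311 CPM in the remaining 12. Brain markers, also 6 genes, were highest in RvD6 9 too, at 175 CPM. They were at 119 CPM in RvD6 10 and at 57.8 to 139 CPM over all libraries but RvD6 9. Choroid plexus markers, 4 genes, ran from 0.520 to 15.3 CPM, with 7.83 CPM in RvD6 9 and 3.18 CPM in RvD6 10. The part of these markers in the Pomc levels was not tested.

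**Figure D2:**
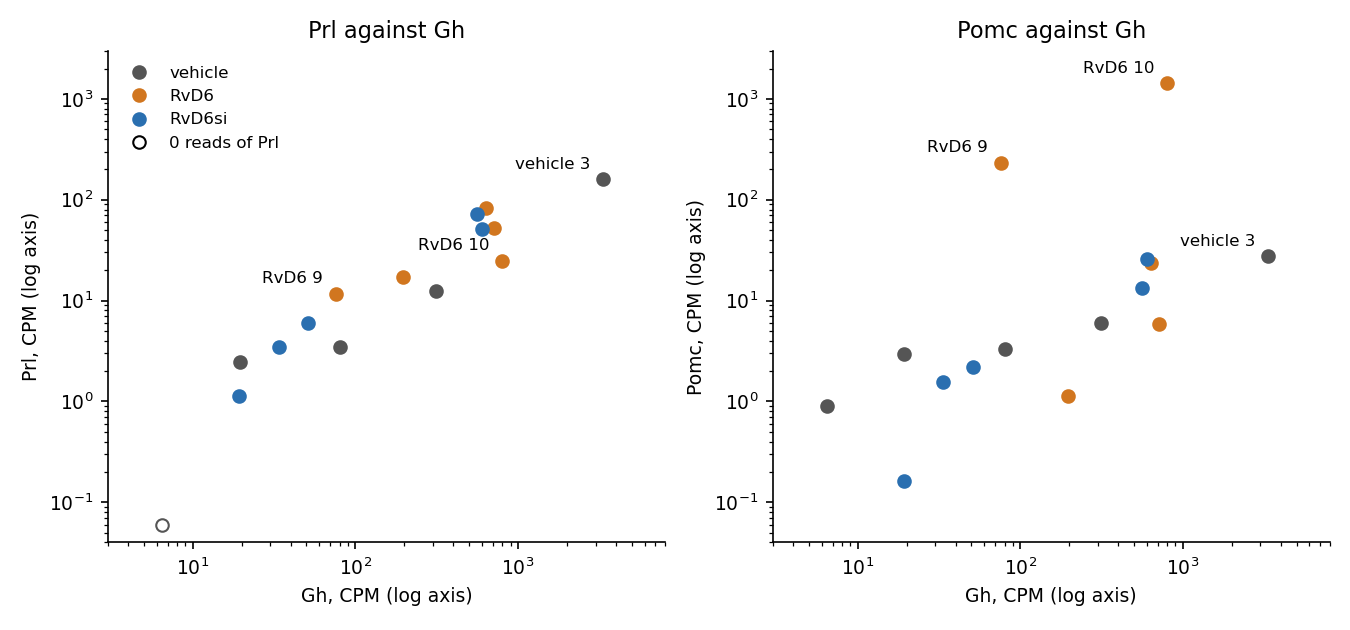
Prl (left) and Pomc (right) against Gh in the 15 libraries, as CPM on log axes, with 1 point for each library coloured by group and an open point at the bottom for the library with 0 Prl reads. Prl mostly rose with Gh, although RvD6 10, highest in Gh of its group, was lower in Prl than RvD6 6 and RvD6 7. In Pomc, RvD6 9 and RvD6 10 lay far above the other libraries.

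Across the 15 libraries, log2 CPM of Gh and Prl correlated with r = 0.955 and rho = 0.932 (permutation p = 1e-05 for each, the smallest that 100000 resamples can give; Benjamini-Hochberg adjusted over 10 pairs of members, 0.0001). Without the 2 libraries farthest from the median of Gh (vehicle 1 and vehicle 3), r was 0.933, and with values centred within each group it was 0.961, so the relation held within groups. Gh and Cga followed with r = 0.779 and rho = 0.785 (permutation p = 0.00083 and 0.00087, adjusted 0.00415 and 0.00435), and r was 0.840 without vehicle 1 and vehicle 3.

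For Prl and Cga, r was 0.704 and rho 0.742 (permutation p = 0.00339 and 0.00206, adjusted 0.0113 and 0.00515), and r was 0.817 without vehicle 1 and vehicle 3. Pomc and Cga had r = 0.675 and rho = 0.693 (permutation p = 0.00491 and 0.00539, adjusted 0.0123 and 0.00898), and r was 0.775 without RvD6 9 and RvD6 10. With values centred within each group, Pomc and Cga had r = 0.601 and rho = 0.511 (adjusted permutation p = 0.0463 and 0.104), so by rho this relation did not hold within groups. Over all 15 libraries Cga thus moved with all 3 of the more abundant hormone genes.

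Pomc was tied less firmly to Gh and Prl. For Gh and Pomc, r was 0.591 and rho 0.764 (permutation p = 0.0185 and 0.00141, adjusted 0.037 and 0.0047). Without vehicle 1 and vehicle 3, r was 0.563 (adjusted permutation p = 0.0813) and rho 0.698 (adjusted permutation p = 0.0247), so over 13 libraries only rho passed. With values centred within each group, r was 0.515 and rho 0.543 (adjusted permutation p = 0.0968 and 0.0982), and neither passed. Prl and Pomc had r = 0.561 and rho = 0.704 (permutation p = 0.0285 and 0.0044, adjusted 0.0475 and 0.0088), with r = 0.522 and rho = 0.621 without vehicle 1 and vehicle 3 (adjusted permutation p = 0.107 and 0.044). Without vehicle 3, RvD6 9 and RvD6 10, a choice made after the data were seen, r was 0.804 for Gh and Pomc and 0.807 for Prl and Pomc over 12 libraries. No correlation of Tshb with another member was detected: its 4 values of r lay between -0.239 and -0.199, each with an adjusted permutation p of 0.474.

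RvD6si against vehicle asks whether the isomer changed these genes in the TG. None of the 5 tested members was called, and the groups overlapped for each. Gh was 1.68 lower on the log2 scale in RvD6si (log2 fold change -1.68, SE 1.24, 95% interval -4.29 to 0.93, edgeR adjusted p = 0.542). Prl was at -0.52 (SE 1.17, adjusted p = 0.875), Cga at -1.45 (SE 1.29, adjusted p = 0.632), Tshb at -0.34 (SE 1.17, adjusted p = 0.923) and Pomc at 0.04 (SE 1.35, adjusted p = 0.994). By edgeR, 0 of 5 members passed an adjusted p of 0.05, and 0 an unadjusted p of 0.05, where 0.67% of all tested genes passed the adjusted one. DESeq2 called 0 of the 3 members to which it gave an adjusted p, where it called 8.13% of all genes. The members' median log2 fold change was -0.52, against 0.02 over all tested genes. The signs rested on vehicle 3: without that library, Gh was at 1.21, Prl at 2.51 and Cga at 1.65, still without a call. Without vehicle 3, RvD6 9 and RvD6 10, Prl (2.52, SE 1.11) had an unadjusted edgeR p of 0.0388 and an adjusted p of 0.367.

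RvD6 against vehicle asks the same of the parent lipid, and here Pomc stood out. Its log2 fold change was 5.33 (SE 1.47, 95% interval 2.24 to 8.41), with an unadjusted edgeR p of 0.0019 and an adjusted p of 0.156, so it was not called by edgeR. By edgeR, 0 of 5 members were called and Pomc was the only one with an unadjusted p below 0.05, where 0% of all tested genes were called and 2256 of them had an unadjusted p below 0.05. DESeq2 called Pomc (log2 fold change 5.34, SE 1.43, adjusted p = 0.0219), 1 of 5 members, where it called 1.92% of all genes. The difference was carried mostly by RvD6 10. Without RvD6 10 it was 2.95 by edgeR, whereas without RvD6 9 alone it was 5.41. Without RvD6 9, RvD6 10 and vehicle 3 it was 1.62 (SE 1.12, edgeR adjusted p = 0.93) and DESeq2 called no member (Pomc adjusted p = 0.917). RvD6 9 and RvD6 10 were also lowest in neuron markers, as given above.

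The other members differed between RvD6 and vehicle by less than their spread. Gh was at -0.68 (SE 1.22, 95% interval -3.24 to 1.87, edgeR adjusted p = 0.856), Prl at 0.03 (SE 1.16, adjusted p = 0.994), Cga at 0.66 (SE 1.23, adjusted p = 0.864) and Tshb at -0.07 (SE 1.16, adjusted p = 0.986). The members' median was 0.03, against 0.02 over all tested genes. Without vehicle 3, Gh was at 2.20, Prl at 3.05 and Cga at 3.76, with no call, so the direction for Gh also depended on that library. Without vehicle 3, RvD6 9 and RvD6 10, Prl (3.48, SE 1.21, unadjusted p = 0.0116) and Cga (3.18, SE 1.36, unadjusted p = 0.0338) had unadjusted edgeR p-values below 0.05, with adjusted p of 0.731 and 0.804.

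RvD6si against RvD6 compares the stereoisomers, 5 members in 1 pair of compounds. Pomc was lower in RvD6si by edgeR's estimate (log2 fold change -5.28, SE 1.47, 95% interval -8.37 to -2.20, unadjusted p = 0.00205, adjusted p = 0.224). EdgeR called 0 of 5 members, where it called 0.235% of all genes. Pomc alone had an unadjusted p below 0.05, as did 1461 of the 16567 genes tested. DESeq2 called Pomc (log2 fold change -5.35, adjusted p = 0.0264), 1 of 5 members, where it called 0.936% of all genes; with only those 2 groups in the fit the adjusted p was 0.0633. Without vehicle 3, RvD6 9 and RvD6 10 the edgeR estimate was -0.27 (SE 1.05, adjusted p = 0.981) and DESeq2 gave an adjusted p of 0.986. The remaining members gave wide intervals that hold 0: Gh -0.996 (95% interval -3.57 to 1.57), Prl -0.54 (-3.00 to 1.91), Cga -2.11 (-4.86 to 0.63) and Tshb -0.27 (-2.78 to 2.24), with edgeR adjusted p-values of 0.685 to 0.975. These intervals reach differences of several log2 units, so equal levels were not shown either. The members' median was -0.996, against 0.00 over all tested genes.

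**Figure D3:**
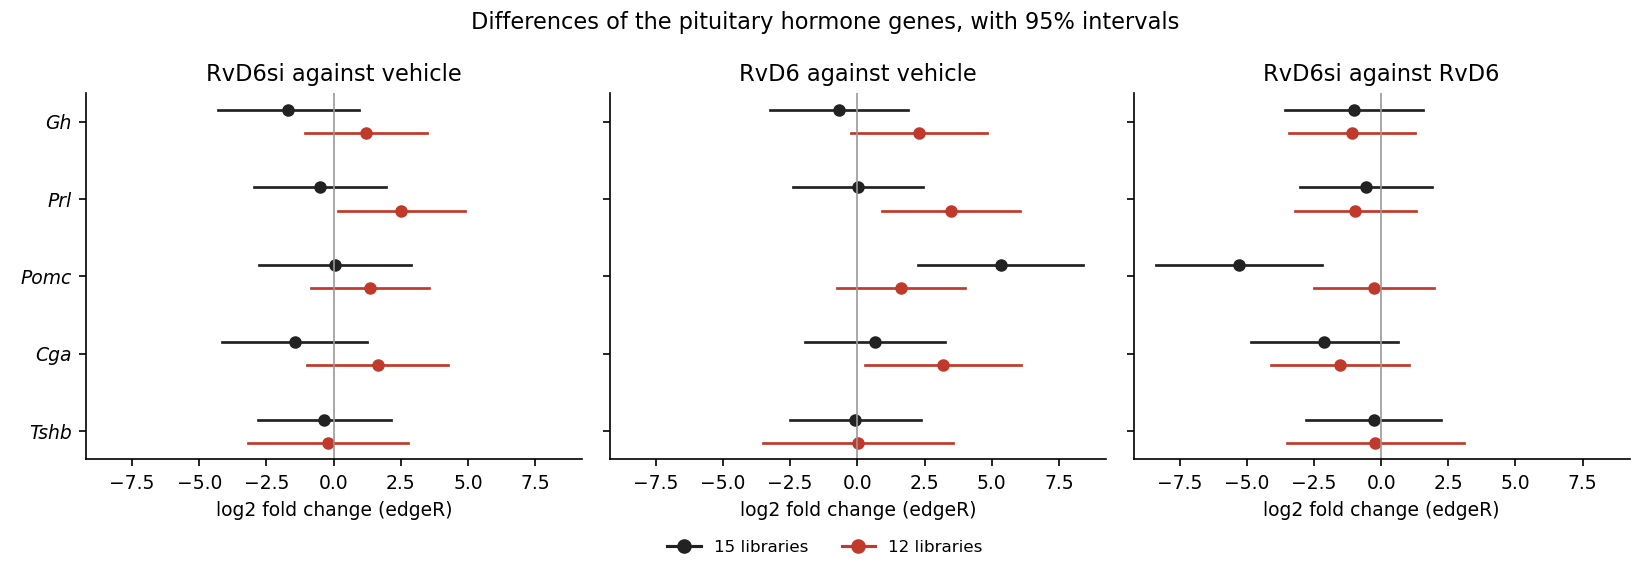
Log2 fold change of 5 members by edgeR in the 3 comparisons, with 95% intervals, from all 15 libraries (black) and from the 12 left without vehicle 3, RvD6 9 and RvD6 10 (red). Pomc in the comparisons with RvD6 was at 5.33 and -5.28 with all libraries and at 1.62 and -0.27 with 12, and Gh against vehicle turned from below to above 0.

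Single genes were also compared by an exact two-sided permutation test of the difference of mean normalized reads, over all ways to split 5 and 5 libraries, where the smallest possible p is 0.00794. In 15 comparisons (5 members, 3 pairs of groups), 0 reached 0.05, the lowest exact permutation p was 0.183, and the groups overlapped in every case. The p-values were 0.754 to 1 for RvD6si against vehicle, 0.206 to 1 for RvD6 against vehicle and 0.183 to 0.675 for RvD6si against RvD6. For Pomc, 3 of the 5 RvD6 libraries lay within the range of the vehicle group, 0.909 to 27.5 CPM, and 2 above it.

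Other genes of the pituitary were looked up to see which of its cell types left a trace. Of 10 transcription factors of the gland, 9 had at least 1 read, and none had enough to be tested. Pou1f1 (38 reads in 7 libraries) was found in vehicle 3 and 4, RvD6 7, 9 and 10, and RvD6si 12 and 14. Nr5a1 (33 reads) was found only in RvD6 7, where Fshb had 6 reads. It had 0 reads in RvD6 10, RvD6si 12 and vehicle 3, where Fshb had most of its reads (143, 130 and 85). All 7 libraries with Pou1f1 reads but RvD6 9 had Gh at 314 CPM or more. RvD6 9 had a single Pou1f1 read, under the floor of 3 reads, and RvD6 6, with Gh at 716 CPM, had 0.

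Tbx19 and Pax7, factors of cells that make Pomc, were found almost only in RvD6 10, the library highest in Pomc, and hardly in RvD6 9. Tbx19, which drives Pomc in both cell types, had 11 reads in RvD6 10, 1 in RvD6 9 and 0 in the other 13. Pax7, a factor of melanotropes, had 2 reads, all of them in RvD6 10. Neurod4, which is not counted here as a factor of cells that make Pomc, had 14 reads, also all in RvD6 10. The single Tbx19 read of RvD6 9 and the 2 Pax7 reads of RvD6 10 are under the floor of 3 reads. With so few reads, an absence elsewhere is not shown: 0 reads allow up to 0.303 to 0.727 CPM. In RvD6 10, Tbx19 was at 1.52 CPM and Neurod4 at 1.935 CPM.

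Of the 8 receptors by which the hypothalamus and other signals steer hormone release, all had reads and 2, Crhr1 and Sstr2, were tested. Crhr1, the receptor for corticotropin-releasing hormone, had 288 reads over all 15 libraries and lay between 0.276 and 5.40 CPM. It was lowest in RvD6 10, with 2 reads, and at 0.851 CPM in RvD6 9, with vehicle 4 (0.808 CPM) between them. RvD6 9 and RvD6 10, high in Pomc, also had the lowest sensory neuron markers. Crhr1 was at 5.05 CPM in vehicle 1, where the summed members were lowest (10.0 CPM). Which cells its reads came from was not tested. Ghrhr, the somatotrope receptor for growth hormone-releasing hormone, had 85 of its 122 reads in vehicle 3, the library highest in Gh, and 22 in RvD6 10. Drd2, the dopamine receptor of lactotropes and melanotropes, was highest in RvD6 10 (43 of 122 reads) but had reads in 11 libraries. Gnrhr, the gonadotrope receptor, had 32 of 43 reads in RvD6 10. Ghsr, Trhr, Sstr5 and Sstr2 were highest in other libraries. All 14 Ghsr reads lay in RvD6si 14, and Trhr had 5 of 10 reads in vehicle 2. Sstr5 had 7 of 9 reads in RvD6si 11, and Sstr2 had 32 of 121 in RvD6si 13. Gh was at 19.4 CPM in vehicle 2, 19.2 in RvD6si 11 and 33.65 in RvD6si 13, but at 559 in RvD6si 14. Neither tested receptor was called in any comparison by edgeR; their median log2 fold changes were 0.18 for the isomer and -1.02 for RvD6, each against vehicle, and 1.20 between the lipids, where those of all tested genes were 0.02, 0.02 and 0.00. The hormones of the posterior lobe, which are made in the hypothalamus, were near absent: Avp had 1 read, in vehicle 3, and Oxt 0.

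**Figure D4:**
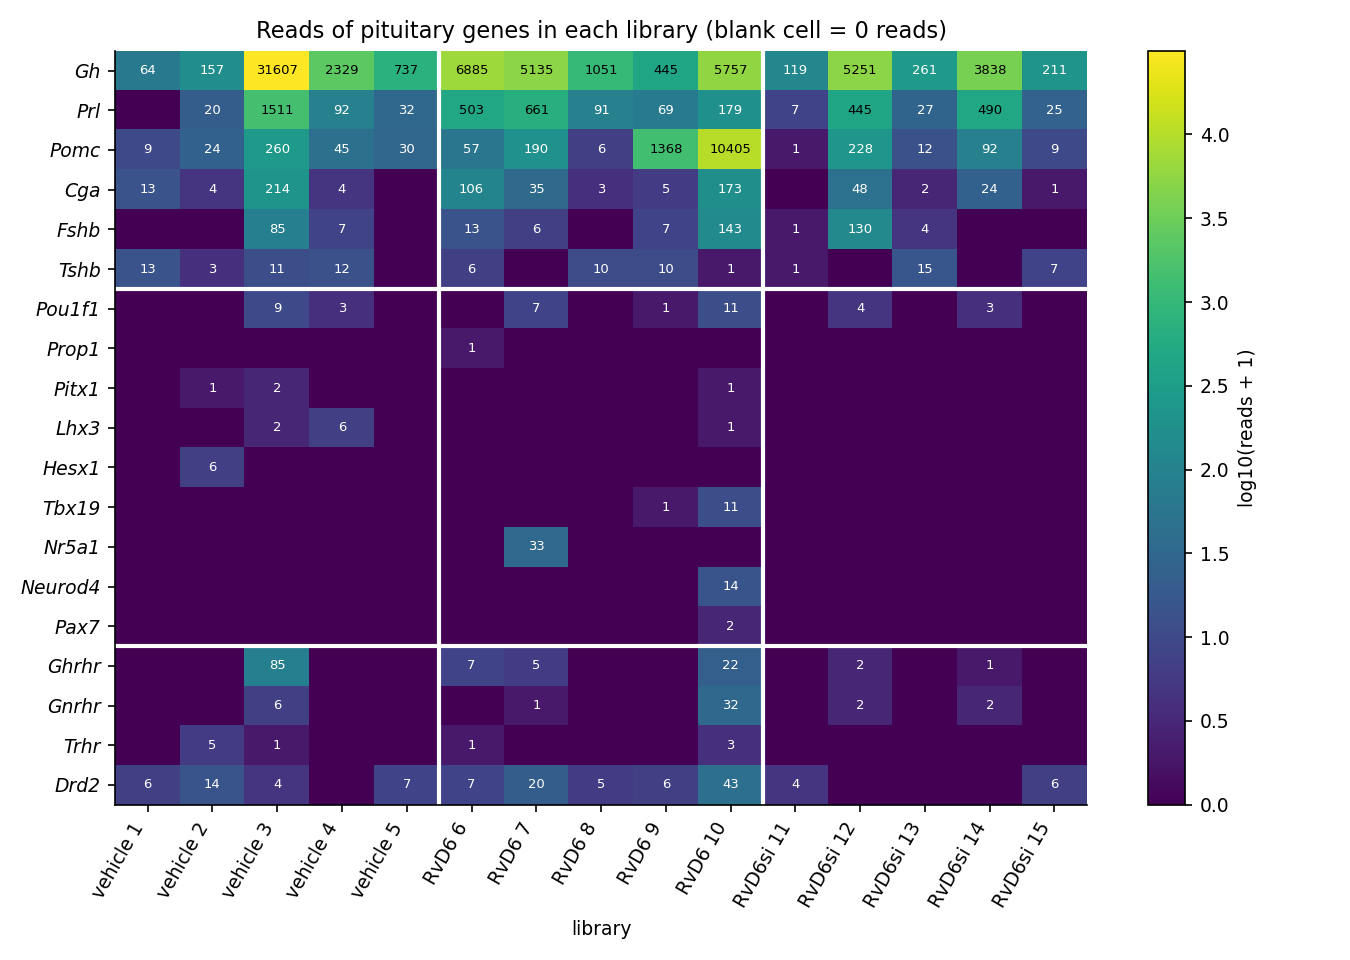
Reads of 19 pituitary genes (rows: hormones, transcription factors, receptors) in each of the 15 libraries (columns, by group), with colour as log10(reads + 1) and the read number in each cell, blank where it is 0. The receptors Crhr1, Sstr2, Sstr5 and Ghsr are not drawn. Ghrhr was highest in vehicle 3, with 85 reads, and Tbx19, Neurod4, Gnrhr and Drd2 were highest in RvD6 10, as was Pax7 with only 2 reads.

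Receptors for the hormones differed in how evenly they were expressed. Of 10, 7 had reads and 5 were tested (Ghr, Prlr, Mc4r, Tshr and Lhcgr), and 0 were called by edgeR in any comparison. Ghr, the growth hormone receptor, lay at 9.18 to 35.8 CPM in the 15 libraries and Tshr, the thyrotropin receptor, at 1.455 to 22.25 CPM. Prlr, the prolactin receptor, ran from 0.258 to 11.2 CPM and Lhcgr, the luteinizing hormone receptor, from 0.212 to 7.38 CPM. Mc1r had reads in 1 library, Mc5r in 10, and Mc2r, Mc3r and Fshr in none. At an unadjusted p below 0.05, 2 receptors passed in RvD6si against vehicle, 1 in RvD6 against vehicle and 2 in RvD6si against RvD6, where 2648, 2256 and 1461 of the 16567 genes tested did. Prlr had the largest of these differences, -2.96 (SE 0.69, edgeR adjusted p = 0.103) in RvD6si against RvD6. Medians of the 5 were 0.14, 0.60 and 0.03 in the 3 comparisons, in the order given for the releasing receptors.

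The enzymes and granule proteins that endocrine cells share with neurons were plentiful in every library. All 7 (Pcsk1, Pcsk2, Cpe, Pam, Chga, Chgb and Scg2) were tested and 0 were called by edgeR in any comparison. Cpe, which trims hormone precursors, lay at 474 to 1127 CPM, and Chga, a granule core protein, at 126.5 to 294.7 CPM. The prohormone machinery thus varied far less across the libraries than Gh did. At an unadjusted p below 0.05, 5 of the 7 passed in RvD6 against vehicle, 4 lower and 1 (Pam) higher, with a median of -0.36 for the list, and 1 passed in RvD6si against vehicle (median 0.02) and 3 in RvD6si against RvD6 (median 0.34); over all 16567 genes tested, 2256, 2648 and 1461 passed in the same order. Summed sensory neuron markers were also lower in every RvD6 library (3566 to 5709 CPM) than in every vehicle library (5929 to 6691 CPM), and their part in these values was not tested. Chgb had the lowest adjusted p of the 4 lower genes, with a log2 fold change of -0.50 (SE 0.16, edgeR adjusted p = 0.197).

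Over the whole pituitary marker list of 14 genes, 13 had a read, 2 (Gh and Pomc) were found in every library and Lhb was at 0 throughout. Its summed level ran from 10.0 to 3580 CPM in vehicle, 218 to 2313 CPM in RvD6 and 20.8 to 697 CPM in RvD6si. Neutrophil precursor and red blood cell markers were higher in every RvD6 library than in every vehicle library, while the range of RvD6si overlapped both groups. The 6 neutrophil precursor genes summed to 453 to 1523 CPM in RvD6 and 71.8 to 400 CPM in vehicle. In RvD6si they ran from 31.4 to 1238 CPM. Red blood cell markers, 5 genes, summed to 5682 to 10440 CPM in RvD6 and 2261 to 4953 CPM in vehicle. In RvD6si these ran from 966.5 to 12790 CPM. Both top values of RvD6si came from RvD6si 15, and the next highest of that group were 94.4 and 2704 CPM. No test was made of these sums. Neutrophil precursor markers were high with high Gh in RvD6 6, 7 and 10 (1189, 1497 and 1523 CPM) and low with low Gh in vehicle 1 (71.8 CPM), but they were low in vehicle 3 (136 CPM) and RvD6si 12 (31.4 CPM), where Gh was high, and high in RvD6si 15 (1238 CPM), where Gh was low. The part of these markers in the hormone levels was not tested.

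Outside the lists, 16562 tested genes were ranked by their correlation with the log2 of the summed members. The 10 highest were Adhfe1 (r = 0.828), Gm7143 (0.802), Rpl29 (0.795), Hacd1 (0.788), Gramd3 (0.785), Pdzph1 (0.783), 2810001G20Rik (0.781), Trp53bp2 (0.763), 2500004C02Rik (0.752) and Fcgr1 (0.750). This is a description over 15 libraries, with no p. By Spearman's rho 6 of the 10 held rank 10 or better, Gm7143 and Pdzph1 among them in a tie at the tenth value, and 4 of the 10 did by r without vehicle 3, RvD6 9 and RvD6 10.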

How the data were processed

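Right TG RNA of 15 mice was sequenced in single libraries after Smart-seq2 amplification. The deposited table holds counts, whole reads for each gene and library, which the authors made with the featureCounts program of Subread on a GRCm38 alignment and GENCODE release 22; the file header gives version 1.5.0-p1 of the program, the submitters' processing notes give 1.6.5. No count column was left without a sample. Gene names came from GENCODE release 21, which named 99.7% of the IDs and gives the members the same spans. From the counts, CPM, TPM (with the deposited gene length) and reads divided by size factors were computed.

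All genes were fitted in edgeR 4.0.16 (R 4.3.3; TMM, filterByExpr with a minimum of 10, quasi-likelihood F test, group as the only term, all 15 libraries in 1 fit), with Benjamini-Hochberg adjustment over the 16567 genes tested and a threshold of 0.05. DESeq2 1.42.0 at default settings was the alternative, and an adjusted p that it left as NA was kept out of its counts. Log2 CPM used a prior count of 2. Intervals of fold changes are 95% intervals, those of shares exact Clopper-Pearson intervals. Permutation steps ran in SciPy 1.17.1 and NumPy 2.4.6. Fits and permutation steps were tested on simulated data. Alternatives were 2-group fits, another normalization (RLE), no filter, a robust fit, other scales and each library left out; leaving out vehicle 3, RvD6 9 and RvD6 10 together was added after the data were seen.

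The members and gene lists were chosen with earlier results of these data known. Named were the 6 members, the genes of the lists (the highest counted as examples), and the 10 genes most correlated with the summed members. A listed gene was left out and is not reported here. Tbx19, Neurod4, Pax7, Nr5a1, Ghrhr, Drd2 and Gnrhr were singled out after their reads were seen.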

Additional observations from a re-analysis of the deposited data

Results flagged for a closer look

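In a group of 5 libraries, a value was marked as far from the rest when its gap to the nearest library took more of the range of the group than Dixon's 95% critical value for 5 samples. Of 15 groups (5 members in 3 groups of libraries), 5 were marked on reads divided by size factors. Chance marks about 1 in 20 groups of normally spread values, which unlogged reads that differ by so many fold are not; on log2(normalized reads + 1), a scale tried after the data were seen, 0 of the 15 groups were marked.

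Of the marks, 4 were on 1 library, vehicle 3. Its gap took 0.911 of the range for Gh (25360 normalized reads, against 2292 in the next vehicle library), 0.925 for Prl (1212 against 90.5), 0.813 for Pomc (209 against 44.3) and 0.945 for Cga (172 against 9.37). Tshb was not marked in that library. The remaining mark was on Pomc in RvD6 10, where the gap took 0.839 of the range (10470 against 1696 in RvD6 9). The members share each library, so these marks are not independent. In vehicle 3, Ghrhr was also at its highest, 9.00 CPM, while skeletal muscle markers were at 15.0 CPM and neutrophil precursor markers at 136 CPM, both within the range of the other vehicle libraries or below it; the part of other tissues in these values was not tested.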

How the results depend on the processing

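The members called under other settings were few: DESeq2 called 1 member, Pomc, in RvD6 against vehicle with all 15 samples (adjusted p = 0.0219) and with only the 2 groups (0.0167), and 1, again Pomc, in RvD6si against RvD6 with all 15 samples; every other alternative, each left-out library included, called 0. The count of all genes called moved more. In RvD6si against vehicle, where edgeR called 111, DESeq2 called 920 with all samples, 979 with 2 groups and 588 without vehicle 3, RvD6 9 and RvD6 10, and edgeR without those 3 called 31. In RvD6 against vehicle, where edgeR called 0 (2256 at an unadjusted p below 0.05), DESeq2 called 369, 664 and 18 in the same order, edgeR with 2 groups 38 and edgeR without the filter 56. In RvD6si against RvD6, where edgeR called 39, DESeq2 called 185, 182 and 117, edgeR with 2 groups 17, without the filter 59, and without the 3 libraries 2. With 1 library left out, the counts ran from 0 (without RvD6si 11) to 229 (without RvD6 9), from 0 to 51 (without RvD6si 15) and from 2 (without RvD6si 11) to 156 (without RvD6si 15) in the 3 comparisons in that order. The cause was not tested.

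Signs of log2 fold changes that were not called turned as follows. Without vehicle 3, RvD6 9 and RvD6 10, edgeR and DESeq2 gave 1.21 and 1.21 for Gh, 2.52 and 2.48 for Prl, 1.65 and 1.67 for Cga in RvD6si against vehicle, and 2.30 and 2.32 for Gh and 0.0184 and 0.0494 for Tshb in RvD6 against vehicle. For Pomc in RvD6si against vehicle, DESeq2 gave -0.0050 with all samples and -0.0024 with 2 groups. With 1 library left out, RvD6si against vehicle ran from -2.27 to 1.21 for Gh, -1.33 to 2.51 for Prl, -2.35 to 1.65 for Cga (each highest without vehicle 3) and -0.96 to 1.41 for Pomc. RvD6 against vehicle ran from -1.03 to 2.20 for Gh, -0.45 to 3.05 for Prl, -0.26 to 3.76 for Cga and -0.57 to 0.26 for Tshb. RvD6si against RvD6 ran from -1.14 to 0.23 for Tshb. Pomc in RvD6 against vehicle stayed positive, from 2.95 (without RvD6 10) to 6.69 (without vehicle 3), with adjusted p of at least 0.105.

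Of the exact permutation tests, 0 of 5 passed in each comparison under the other scales. With 1 library left out, 0 to 1 passed in RvD6 against vehicle (Prl without vehicle 3, exact permutation p = 0.0397; Pomc without RvD6 8, exact permutation p = 0.0476) and 0 to 1 in RvD6si against RvD6 (Pomc without RvD6 8, exact permutation p = 0.0397). Of the 10 genes most like the members, 6 held rank 10 or better by Spearman's rho, 2 of them tied at the tenth value, and 4 without the 3 libraries. The number of correlated pairs stayed within 1.5 times its value of 6 in each alternative, and single pairs lost significance in 5 of 50 alternatives. No paired analysis was possible because the groups share no replicate numbers. At these depths 3 reads are the floor, so Lhb and the transcription factors could not be compared, and Tshb was compared on 15 reads or fewer in each library.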
